A study of Homo sapiens with 5 samples.

Results

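Cells of the YFP-high fraction, which held the most E2F1 transcript, were compared with cells of the YFP-negative fraction, across every gene row of the deposited count table. The members are thus 2 of the 5 libraries of the series and 15099 of 27992 gene rows, those with at least 1 read per 1e+06 gene reads in at least 1 of the 5 libraries. All 5 libraries came from U2OS, a human osteosarcoma line. Both sorted fractions were from one U2OS derivative carrying pTRIPZ-YFP-ER-E2F1, a construct whose name joins a fluorescent protein (YFP), ER and E2F1, and they were parted by flow cytometry on YFP. The labels give the same treatment to every group, parental U2OS included: 500 ng/ml doxycycline for 48 h, then 90 nM OHT for a further 20 h, in medium with 8% fetal bovine serum. The YFP-negative fraction is therefore a baseline of cells that carry the construct and received both drugs but showed no YFP. The other 3 libraries, namely parental cells without the construct and the YFP-low and YFP-medium fractions, are given beside the comparison. The labels do not say whether the line is 1 clone.

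E2F1 is a sequence-specific activator of transcription. In cycling cells it is held by the retinoblastoma protein until the cell commits to S phase, and it then raises genes for DNA synthesis. At high level it is also known to promote cell death. An ER fusion of this kind is kept inactive until a ligand of the receptor domain is added, and pTRIPZ is a doxycycline-inducible lentiviral vector.

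Each group held 1 library, so nothing below has a replicate check and no p-value is given. Levels are reads per 1e+06 gene reads (CPM) after scaling of library sizes, and where 5 values are given parental cells come first and the sorted fractions follow from YFP-negative up to YFP-high. A gene was called higher or lower in YFP-high when log2((CPM + 0.5)/(CPM + 0.5)) against YFP-negative reached 2-fold and the exact 95% interval of the ratio of both counts excluded no change. Folds are ratios of CPM without the added 0.5, and the range in parentheses after a fold is that interval, which covers counting error only. Fewer cells with a transcript and less of it per cell cannot be told apart in RNA from a pool of cells.

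E2F1 reads followed the gates: the gene had 86.1, 106, 163, 361 and 996 CPM. It was 9.39-fold higher (9.19 to 9.61) in YFP-high than in YFP-negative, and gene counts do not part the transgene from the cell's own gene. ESR1, which encodes oestrogen receptor alpha, had 15, 3, 3, 16 and 25 reads, under 1 CPM in all 5 libraries. Gene reads numbered 76.5 M in YFP-negative and 70.7 M in YFP-high, and 72.4 M to 75.9 M in the other 3 libraries. Of 12 markers of osteosarcoma and mesenchymal cells, 8 were analysed and 0 were called; their summed level was 3765 CPM in YFP-negative, 3226 CPM in YFP-high and 6412 CPM in parental cells. COL1A2, BGLAP, IBSP and SP7, bone and matrix markers of that list, were below 1 CPM in all 5 libraries. All 5 leukocyte markers were below 1 CPM throughout. The summed erythroid markers had 1.77 CPM in YFP-high against 0.0240 CPM in YFP-negative, and HBA2 held 1.39 CPM of the YFP-high value; the other 3 libraries held at most 0.0129 CPM. The summed endothelial markers had 0.803 CPM in YFP-negative, 2.33 CPM in YFP-high and 3.08 CPM in parental cells. In the same order, epithelial markers had 9.29, 14.2 and 14.5 CPM and neural markers 45.4, 54.2 and 30.6 CPM. The part of any admixed cells in the results was not tested.

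The 7 promoter windows below are shown because they carry a word recognised by E2F factors, TTTCCCGC, TTTCGCGC, TTTGCCGC or TTTGGCGC, on either strand, and because, E2F1 apart, they belong to the called genes with the word whose counting intervals lay farthest from no change. Each runs from 250 bases before to 50 bases after the transcription start, as 300 bases 5′ to 3′ on the gene's own strand, from RefSeq on GRCh38.p14. The word is in capitals, as read on that strand. The first is the promoter of E2F1 itself (chr20:33686336-33686635, minus strand), with words 33 and 20 bases before the start. The next 4 belong to genes called higher: IKZF1, a lymphoid zinc finger factor (chr7:50304466-50304765, plus strand), CITED1, a transcriptional coactivator (chrX:72307108-72307407, minus strand), HS6ST3, a heparan sulfate sulfotransferase (chr13:96089857-96090156, plus strand), and CDC20B, a gene of multiciliated cells (chr5:55173128-55173427, minus strand). The last 2 belong to genes called lower: FLAD1, an enzyme of FAD synthesis (chr1:154983094-154983393, plus strand), and AEN, a nuclease known as a p53 target (chr15:88621090-88621389, plus strand).
E2F1: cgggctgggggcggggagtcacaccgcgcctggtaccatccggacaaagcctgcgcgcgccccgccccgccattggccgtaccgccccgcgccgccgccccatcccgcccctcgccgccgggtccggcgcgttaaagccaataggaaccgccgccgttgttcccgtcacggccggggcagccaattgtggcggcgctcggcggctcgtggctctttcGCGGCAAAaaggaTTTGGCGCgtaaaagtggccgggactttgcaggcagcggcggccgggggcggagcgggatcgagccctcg
IKZF1: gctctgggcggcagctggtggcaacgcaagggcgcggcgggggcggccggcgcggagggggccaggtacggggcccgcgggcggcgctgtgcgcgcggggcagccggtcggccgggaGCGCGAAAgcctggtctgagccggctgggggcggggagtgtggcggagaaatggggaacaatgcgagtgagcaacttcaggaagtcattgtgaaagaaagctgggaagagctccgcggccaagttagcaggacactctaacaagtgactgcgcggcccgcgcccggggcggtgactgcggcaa
CITED1: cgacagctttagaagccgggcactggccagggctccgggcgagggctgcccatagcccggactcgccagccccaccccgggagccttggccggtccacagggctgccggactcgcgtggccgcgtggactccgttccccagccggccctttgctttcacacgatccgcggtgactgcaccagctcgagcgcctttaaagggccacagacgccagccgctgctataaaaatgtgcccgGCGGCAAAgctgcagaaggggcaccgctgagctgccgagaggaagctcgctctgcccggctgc
HS6ST3: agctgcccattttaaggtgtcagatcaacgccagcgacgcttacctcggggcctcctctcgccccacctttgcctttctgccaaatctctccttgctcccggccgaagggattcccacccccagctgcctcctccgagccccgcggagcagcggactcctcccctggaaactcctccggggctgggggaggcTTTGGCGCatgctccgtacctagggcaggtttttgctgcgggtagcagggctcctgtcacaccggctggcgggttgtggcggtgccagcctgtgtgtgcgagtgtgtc
CDC20B: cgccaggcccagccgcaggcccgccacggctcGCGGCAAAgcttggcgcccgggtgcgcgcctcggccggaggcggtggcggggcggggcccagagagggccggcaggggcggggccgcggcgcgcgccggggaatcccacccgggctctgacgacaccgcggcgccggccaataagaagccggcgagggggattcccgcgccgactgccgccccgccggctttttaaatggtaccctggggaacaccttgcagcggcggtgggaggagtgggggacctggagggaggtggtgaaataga
FLAD1: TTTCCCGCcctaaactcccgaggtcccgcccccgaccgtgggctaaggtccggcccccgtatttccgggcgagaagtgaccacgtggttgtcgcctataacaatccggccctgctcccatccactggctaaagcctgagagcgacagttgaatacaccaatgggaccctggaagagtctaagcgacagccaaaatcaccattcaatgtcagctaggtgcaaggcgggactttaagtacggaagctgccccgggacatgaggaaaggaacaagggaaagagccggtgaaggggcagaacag
AEN: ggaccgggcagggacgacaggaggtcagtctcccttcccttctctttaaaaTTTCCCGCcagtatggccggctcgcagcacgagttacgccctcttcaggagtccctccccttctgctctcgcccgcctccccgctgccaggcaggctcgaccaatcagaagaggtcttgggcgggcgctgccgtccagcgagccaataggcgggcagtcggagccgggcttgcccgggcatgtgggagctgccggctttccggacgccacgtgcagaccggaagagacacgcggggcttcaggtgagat

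The choice of these genes fixed their direction, so their levels are a description. IKZF1 had 1.31, 4.46, 15.7, 56.2 and 204 CPM, so YFP-high held 45.7-fold higher (41.2 to 50.8) levels than YFP-negative. CITED1 had 1.26, 1.51, 2.74, 8.48 and 53.95 CPM. HS6ST3 had 0.216, 1.08, 4.25, 12.01 and 29.2 CPM. These 3 genes were highest in YFP-high, with YFP-medium next. FLAD1 had 28.9, 28.9, 19.3, 16.1 and 8.83 CPM and was 3.27-fold lower (2.98 to 3.59) in YFP-high. AEN had 96.2, 129, 119, 85.5 and 43.7 CPM and was 2.96-fold lower (2.84 to 3.09). For FLAD1 and AEN the YFP-high library held the lowest value of the 5. The word lies 133 bases before the start in IKZF1, 13 in CITED1, 58 in HS6ST3, 218 in CDC20B, 250 in FLAD1 and 199 in AEN.

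Across the transcriptome, 3062 genes were called higher in YFP-high (20.3%) and 1712 lower (11.3%), which makes 4774 of 15099 called (31.6%). Of those called, 64.1% were higher. This split depends on scaling: with library sizes taken as total gene reads, which shifts the all-gene median by -0.26 (log2), 45.7% of the called genes were higher. The tails differed more than the counts. At 4-fold 1115 genes were higher and 108 lower, at 8-fold 392 and 1, at 16-fold 104 and 0, and at 32-fold 21 and 0. The median log2 ratio of all analysed genes was -0.05, with the middle 50% between -0.60 and 0.77. Genes called higher took 10.3% of gene reads in YFP-negative and 27.9% in YFP-high, passing through 14.5% in YFP-low and 20.5% in YFP-medium. Genes called lower went from 7.84% to 2.42%. These shares describe the genes the calls selected.

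**Figure D1:**
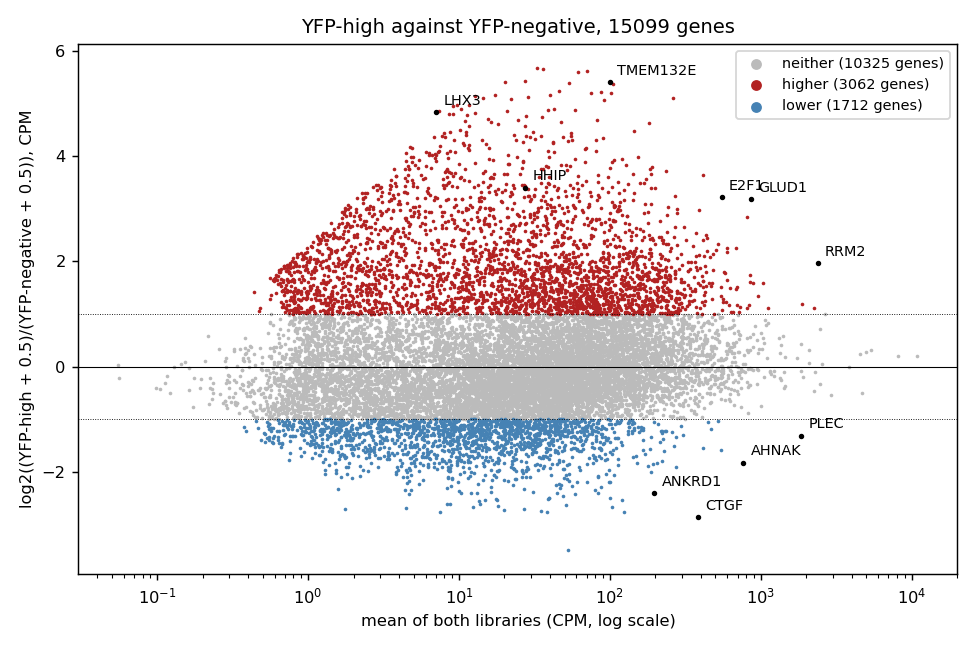
Log2 ratio of YFP-high to YFP-negative (vertical axis, with 0.5 CPM added to both) against the mean level of both libraries (horizontal axis, CPM on a log scale), 1 point per gene. Red points are the 3062 genes called higher, blue points the 1712 called lower and grey points the 10325 called neither; the upper tail reaches past 5 on the log2 scale while the lower tail holds 1 gene past 8-fold.

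The share of genes called lower differed with the level of the gene. Among genes with a mean of 5 to below 20 CPM, 18.3% were higher and 16.9% lower. Among those with 100 to below 500 CPM, 24.0% were higher and 3.43% lower, and above 500 CPM 16.2% and 1.75%. Lower calls were thus scarcest among the most abundant genes. By type of RNA, 1 of 43 small nucleolar RNAs was called higher and 17 lower, with a median log2 ratio of -0.84. Protein-coding genes had 2666 higher and 1452 lower of 13300, and long noncoding RNAs 55 and 39 of 240.

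Most of the 10 largest gains in CPM were of genes already abundant in YFP-negative. RRM2, the small subunit of ribonucleotide reductase, which makes deoxynucleotides, had 505, 966, 2476, 3808 and 3780.4 CPM; it stood level in YFP-medium and YFP-high. HSP90AA1, the inducible cytosolic HSP90 chaperone, had 1207, 1428, 1819, 2483 and 3099.7 CPM. GLUD1, mitochondrial glutamate dehydrogenase, had 118, 171, 309.6, 786 and 1550.2 CPM. GLUD1 was 9.09-fold higher (8.93 to 9.25) in YFP-high and rose at each step, with its greatest gain in CPM from YFP-medium to YFP-high. FAM111B, a protease family member, had 107, 196, 649.6, 1139 and 1418 CPM, and SLC16A1, a lactate and pyruvate carrier, had 177, 389, 939.9, 1451 and 1293 CPM. SLC16A1 peaked in YFP-medium, unlike FAM111B. HNRNPU, a nuclear RNA-binding protein, went from 1149 to 2622 CPM, and its antisense neighbour HNRNPU-AS1 from 3.25 to 29.1 CPM. Strand use in the counting was not given in the sources used here. These 2 genes therefore cannot be told apart where they overlap. NIN, a centrosomal anchor of microtubules, went from 514 to 1536 CPM, DPYSL2, a tubulin-binding protein of growing axons, from 238 to 1139 CPM, and RANBP2, a nucleoporin and SUMO ligase, from 438 to 1322 CPM.

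The largest losses were of genes for the cytoskeleton, adhesion and the matrix. PLEC, the cytolinker plectin, had 3224, 2644, 2386, 1379 and 1067 CPM and was 2.48-fold lower (2.46 to 2.50) in YFP-high. AHNAK, a giant scaffold protein, had 2266, 1194, 1304, 719 and 337 CPM and was 3.54-fold lower (3.49 to 3.59). For both genes parental cells held more than any sorted fraction. CTGF, a matricellular growth factor, had 363, 670.3, 432, 226 and 91.7 CPM and was 7.31-fold lower (7.12 to 7.51). ANKRD1, a muscle ankyrin repeat protein, had 291, 331, 289, 169.7 and 61.9 CPM and was 5.34-fold lower (5.16 to 5.52). CTGF and ANKRD1, both known YAP targets, were highest in YFP-negative. THBS1, a matrix glycoprotein, went from 809.9 to 271 CPM, the receptor tyrosine kinase AXL from 650.0 to 286 CPM, the laminin receptor subunit ITGA3 from 699 to 342 CPM, and ODZ2, a teneurin adhesion protein, from 434 to 116 CPM. AMIGO2, another adhesion protein, went from 619 to 212 CPM.

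More silent genes became detectable than were lost. With a gene taken as silent at 3 reads or fewer and on at 1 CPM or more, 69 genes were silent in YFP-negative and on in YFP-high, and 0 were on in YFP-negative and silent in YFP-high. With silence at 10 reads or fewer the counts were 172 and 16, and with parental cells in place of YFP-negative 93 and 8. At least 46 of the 69 were protein-coding by RefSeq type, which was looked up only for genes that passed the filter. Of the 69, 15 had no read in YFP-negative and 0 reached 1 CPM in parental, YFP-low or YFP-medium. The rule fixes that the last library is high, so only the other 3 libraries are free to vary. Over the 69 genes the median was 2 reads in parental cells, 1 read in YFP-negative, 4 reads in YFP-low, 12 reads in YFP-medium and finally 107 reads in YFP-high. The levels reached were low: the median was 1.67 CPM and 2 genes passed 10 CPM.

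GDF10, a BMP-related ligand, had 1, 2, 6, 31 and 939 reads, and LHX3, a homeobox factor of pituitary and motor neurons, had 0, 1, 8, 12 and 899 reads. These were the 2 genes past 10 CPM, at 14.7 and 14.1 CPM in YFP-high. GSC2, a homeobox factor related to goosecoid, had 10, 0, 8, 7 and 181 reads. LBX1, a homeobox factor of muscle and spinal cord precursors, had 0, 0, 2, 6 and 213 reads. Against a floor of 3 reads in YFP-negative, GSC2 was at least 78.8-fold higher and LBX1 at least 92.7-fold higher in YFP-high. CACNG5, a calcium channel and AMPA receptor regulatory subunit, had 4, 2, 31, 45 and 235 reads, and HES3, a HES family repressor, had 0, 1, 0, 3 and 81 reads. Per length, GSC2 stood highest of the 69 genes in YFP-high, at 23.9 TPM, and LHX3 had 10.8 TPM. HBA2, an alpha globin gene, had 1, 0, 0, 0 and 89 reads; its near-identical copy HBA1 can share its reads. RPL2B, a name that gives no function here, had 16, 1, 16, 28 and 124 reads.

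**Figure D2:**
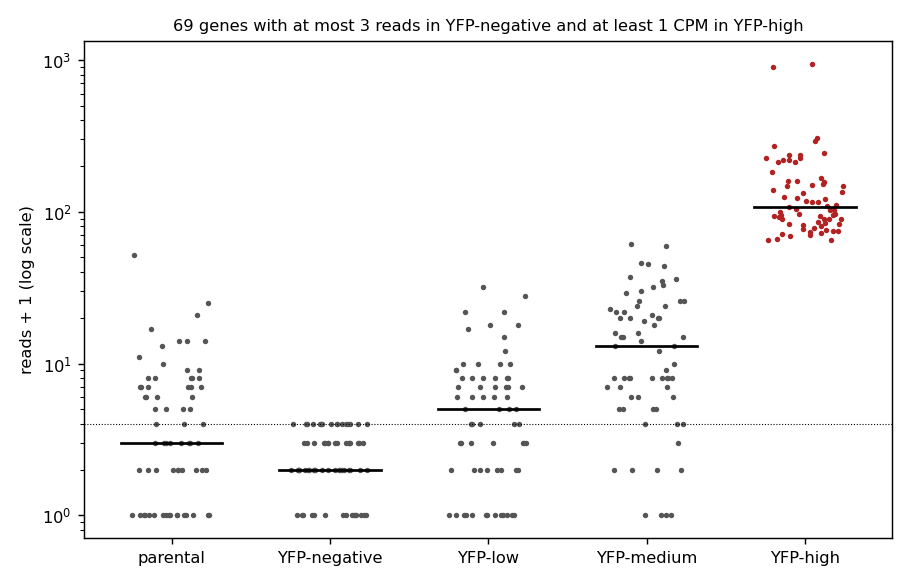
Reads per gene plus 1 (vertical axis, log scale) of the 69 genes with at most 3 reads in YFP-negative and at least 1 CPM in YFP-high, in each of the 5 libraries (horizontal axis), 1 point per gene; black bars are medians and the dotted line marks 3 reads. Medians of 4 reads in YFP-low and 12 in YFP-medium lie between those of YFP-negative (1) and YFP-high (107).

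Some families of developmental transcription factors leaned upward. Of 12 LIM homeobox genes, 10 were analysed, 8 called higher and 1 lower, with a median log2 ratio of 2.55. Of 9 PAX genes 5 were analysed, 4 were higher and 0 lower (median 2.95). Over all analysed genes 20.3% were higher and 11.3% lower. Of 9 analysed T-box genes 2 were higher (22.2%) and of 7 analysed NKX genes 2 (28.6%), nearer the share of all genes. Of 3 analysed ZIC and GLIS genes 1 was higher and 1 lower. Genes enter these counts, and those of the lists and families below, by passing the filter in any library. A gene silent elsewhere thus enters only through the library where it is on, and these counts describe the genes detected. SIX2, a factor of kidney progenitors, had 2.08, 2.61, 4.63, 10.02 and 38.7 CPM. IRX4, a ventricular heart factor, had 2.09, 2.01, 2.61, 6.43 and 40.5 CPM. PAX1, a factor of the sclerotome, had 0.723, 0.731, 0.620, 1.79 and 15.8 CPM. In SIX2, IRX4 and PAX1 the YFP-high library stood far above each of the other 4. GATA genes split: GATA2 and GATA5 were higher (from 0.300 to 6.74 CPM and from 0.204 to 7.37 CPM), and GATA4 was 3.76-fold lower (3.11 to 4.56), from 7.82 to 2.08 CPM. SOX genes split as well, with SOX18 going from 1.74 to 16.04 CPM and SOX9, a cartilage factor, falling from 136 to 31.6 CPM. KLF6 went from 78.3 to 16.1 CPM and KLF7 from 16.4 to 3.19 CPM, while SP8 of the same family went from 4.58 to 67.7 CPM. Zinc finger genes named ZNF, the largest family, leaned the other way, with 51 higher and 66 lower of 460 analysed and a median of -0.26.

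Hedgehog signalling runs from a secreted ligand to the receptor Patched, which holds back Smoothened, and on to GLI transcription factors. Of 19 listed genes 17 were analysed, with a median log2 ratio of 1.28. Calls were 10 higher (58.8%) and 0 lower, against 20.3% and 11.3% of all analysed genes. The receptors and coreceptors made up most of these, with 3 of 3 receptors and 3 of 3 coreceptors higher. IHH, a ligand, had 0.254, 0.132, 0.246, 0.723 and 6.90 CPM. PTCH1, the main receptor, had 40.6, 22.96, 22.04, 46.1 and 90.02 CPM, and SMO, its signalling partner, had 46.97, 36.6, 39.7, 54.3 and 104 CPM. PTCH1 and SMO dipped from parental to YFP-negative before they rose in YFP-medium and YFP-high. The coreceptor GAS1 had 6.25, 3.70, 5.43, 11.2 and 29.9 CPM and was 8.07-fold higher (7.16 to 9.13). HHIP, a decoy that binds the ligands, had 2.16, 4.34, 7.16, 15.9 and 50.5 CPM and was 11.6-fold higher (10.4 to 13.02). The GLI factors showed no call: 0 of 3 were higher or lower, with a median of 0.54. The calls thus covered a ligand, its receptors and coreceptors, HHIP, and the ligand release genes DISP2 and SCUBE2, while the ligands SHH and DHH did not pass the filter.

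Ephrins and Eph receptors signal between touching cells. Of 22 genes 18 were analysed, 10 were called higher (55.6%), 2 lower (11.1%), and the median was 1.68. The shares over all analysed genes were 20.3% and 11.3%. EFNA2, an ephrin ligand, had 6.23, 5.57, 17.9, 46.98 and 54.7 CPM, so most of its gain was present in YFP-medium. EPHB6, a receptor without kinase activity, had 38.4, 32.2, 49.03, 96.8 and 159 CPM and was 4.94-fold higher (4.73 to 5.15). EPHA8 had 0.583, 0.276, 0.233, 0.251 and 12.5 CPM, so its level above 1 CPM was in the last library only. EPHA2, an ephrin-A receptor, had 159, 258, 256, 192 and 81.2 CPM and was 3.18-fold lower (3.09 to 3.28). EPHA2 and EPHA4 were the genes of the list called lower. Among semaphorin, slit and netrin genes 15 were higher and 5 lower of 44 analysed of 47 (median 0.50). UNC5B, a netrin receptor, had 29.6, 26.1, 23.5, 46.5 and 261 CPM and PLXNC1, a semaphorin receptor, had 8.24, 9.40, 21.5, 43.2 and 82.3 CPM. UNC5B gained most between YFP-medium and YFP-high, whereas PLXNC1 was already above YFP-negative in YFP-low.

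Nuclear receptors are transcription factors that bind steroids, retinoids and other small ligands. Of 44 genes 34 were analysed, 18 were called higher (52.9%), 2 lower (5.88%), and the median was 1.06. The shares over all analysed genes were 20.3% and 11.3%. NR4A2, an orphan receptor of the immediate early kind, had 2.64, 7.53, 14.2, 45.4 and 83.4 CPM. NR4A3 had 6.24, 9.30, 14.7, 33.2 and 92.2 CPM. Both rose at every step of YFP. ESR2, oestrogen receptor beta, had 1.45, 2.04, 4.36, 9.87 and 20.1 CPM and was 9.85-fold higher (8.39 to 11.6). NR5A2 had 0.380, 0.420, 1.09, 1.31 and 8.56 CPM and RORB had 2.09, 0.695, 1.63, 2.97 and 11.5 CPM. RARA, a retinoic acid receptor, had 91.04, 72.9, 61.3, 43.9 and 23.7 CPM and was 3.07-fold lower (2.90 to 3.25). All groups received OHT, a ligand of oestrogen receptors, and its part in these values was not tested.

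The circadian clock is a loop in which BMAL1 and CLOCK drive PER and CRY genes that repress them. Of 23 genes 21 were analysed, 9 were higher (42.9%) and 2 lower (9.52%), against 20.3% and 11.3% of all analysed genes (list median 0.53). PER2 had 16.9, 13.7, 20.96, 40.5 and 103 CPM and was 7.52-fold higher (7.06 to 8.01). PER3 had 71.2, 35.5, 44.4, 68.5 and 119 CPM and CRY1 had 43.5, 54.2, 78.5, 111 and 146 CPM. These 3 repressors were highest in YFP-high. Another repressor, BHLHE40, had 124, 88.7, 69.04, 38.3 and 19.2 CPM and was 4.63-fold lower (4.35 to 4.92), and NR1D1 had 40.6, 30.7, 23.1, 17.4 and 9.20 CPM. The repressors of the list therefore moved in both directions. BHLHE41 and DBP were called higher against YFP-negative, yet BHLHE41 had 34.2, 8.38, 7.41, 11.9 and 33.7 CPM and DBP had 19.9, 5.29, 4.25, 4.85 and 18.2 CPM, so neither exceeded parental cells.

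**Figure D3:**
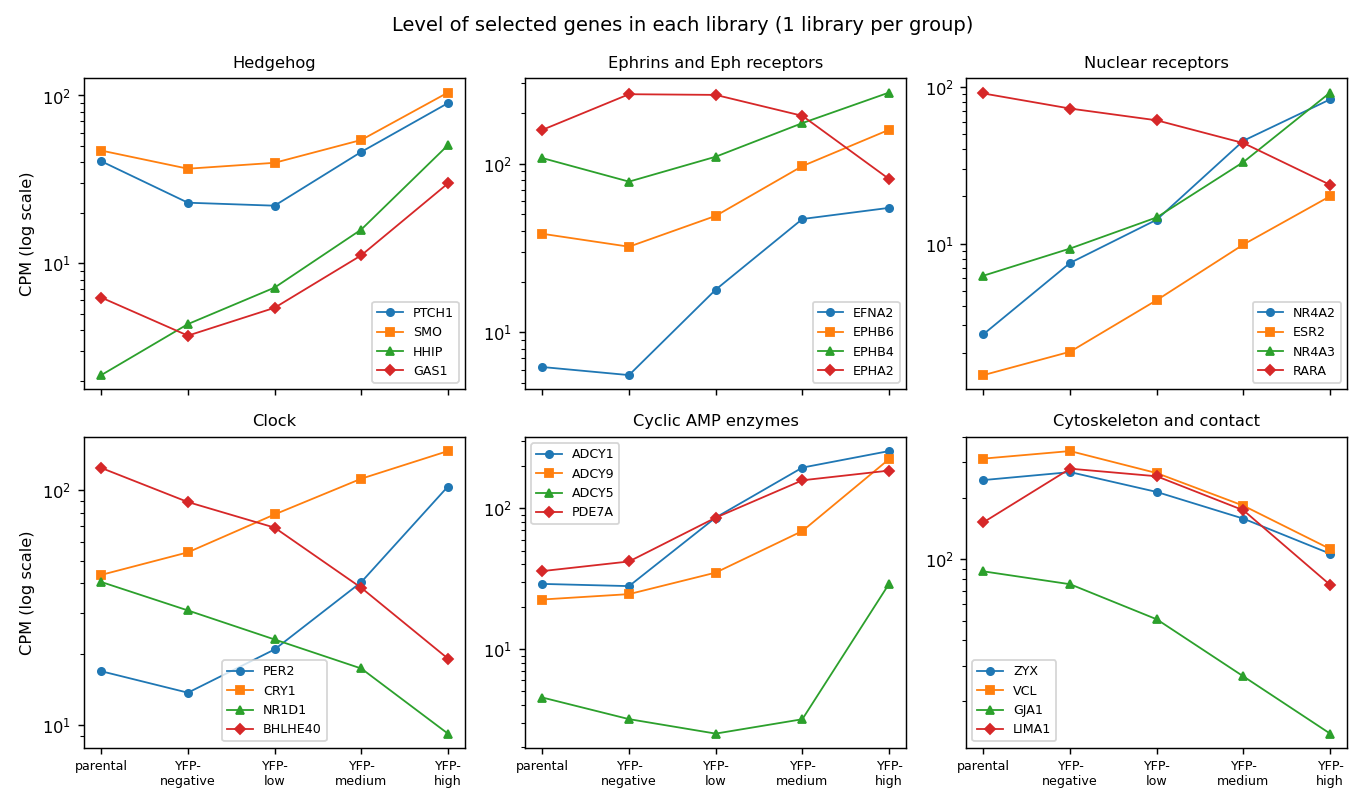
CPM (vertical axes, log scale) of 4 genes in each of 6 groups across the 5 libraries (horizontal axes, 1 library per group, lines join the values of 1 gene). Rising genes such as PTCH1, NR4A2 and PER2 and falling genes such as EPHA2, BHLHE40 and VCL occur side by side; EPHA2 and LIMA1 were higher in YFP-negative than in parental cells.

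Enzymes of cyclic nucleotide turnover were higher on both sides of the cycle. Of 10 adenylate cyclases, which make cyclic AMP, 8 were analysed, 6 were higher and 0 lower (median 2.10). ADCY1 had 29.1, 28.04, 86.1, 195 and 256 CPM, ADCY9 had 22.5, 24.6, 34.97, 69.1 and 224 CPM and ADCY5 had 4.53, 3.18, 2.51, 3.17 and 29.1 CPM. Their folds were close: ADCY1 was 9.12-fold higher (8.74 to 9.53), ADCY9 9.11-fold higher (8.70 to 9.55) and ADCY5 9.15-fold higher (8.04 to 10.4). They differed in course, since ADCY1 passed 3-fold in YFP-low and ADCY5 did not exceed its YFP-negative level before YFP-high. Of 22 phosphodiesterases, which break cyclic nucleotides down, 18 were analysed, 9 were higher and 2 lower (median 1.15). PDE7A went from 41.97 to 186 CPM, PDE1B from 1.11 to 16.8 CPM and PDE8B from 0.935 to 12.96 CPM. Channels and receptors of excitable cells moved likewise. Of 40 voltage-gated calcium and sodium channel genes 29 were analysed, 16 were higher and 4 lower. Of 47 glutamate and GABA receptor genes 26 were analysed, 15 were higher and 1 lower. Over all analysed genes 20.3% were higher and 11.3% lower. Of the analysed members, 5 channel and 9 receptor genes were below 1 CPM in YFP-negative, against 1 and 2 in YFP-high. Genes on in YFP-high alone enter only through that library, so these counts describe the genes detected. CACNA1D, an L-type calcium channel, went from 4.11 to 49.7 CPM, and GABRD, a GABA receptor subunit, from 2.07 to 31.9 CPM. The medians of these families were 1.42 and 1.43.

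Motile cilia are built in multiciliated cells under MCIDAS and its partners. Of 32 genes 20 were analysed, 8 were higher (40%) and 0 lower, against 20.3% and 11.3% of all analysed genes (list median 0.33). The regulators led, with 4 of 5 analysed higher (median 2.03), and 4 of 10 dynein arm genes and 0 of 5 axoneme genes were called. MCIDAS, listed in the files as IDAS, had 4.30, 7.74, 20.4, 35.1 and 42.8 CPM. CCNO, a cyclin of centriole amplification, had 6.34, 15.8, 50.02, 94.6 and 80.8 CPM. TP73, a p53 family member needed for multiciliated cells, had 20.5, 47.03, 155, 237 and 194 CPM. CCNO and TP73 peaked in YFP-medium, and IDAS and the outer arm dynein gene DNAI1 in YFP-high; DNAI1 had 0.672, 0.599, 0.737, 4.52 and 18.1 CPM. CDC20B, whose promoter is shown above, lies in RefSeq gene order beside GPX8 and near MCIDAS. CDC20B had 0.494, 0.827, 2.92, 11.1 and 22.6 CPM, while GPX8, a peroxidase of the endoplasmic reticulum, had 132, 98.7, 82.5, 64.1 and 33.2 CPM and was 2.98-fold lower (2.84 to 3.12). Neighbouring genes at this site therefore moved in opposite directions. By contrast, intraflagellar transport and primary cilium genes had 2 higher and 2 lower of 27 analysed (median -0.38). IFT122 was 2.97-fold higher (2.82 to 3.14) and TTC8, a BBSome subunit, 3.38-fold lower (2.95 to 3.88).

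Chromatin and cofactor genes were higher in part. SWI/SNF complexes remodel nucleosomes, and of 25 subunit genes 24 were analysed, 10 were higher and 1 lower (median 0.72). SS18L1 had 39.1, 32.1, 46.9, 94.4 and 183 CPM, BCL7A had 10.49, 10.3, 20.9, 38.95 and 53.00 CPM and PHF10 had 74.1, 85.6, 146, 246 and 268 CPM. SS18L1 rose at each step, and PHF10 gained little after YFP-medium. The ATPase gene SMARCA2 went from 48.6 to 146 CPM. Of 15 analysed lysine demethylases 7 were higher and 2 lower (median 0.93), among them KDM3A (from 48.00 to 212 CPM) and KDM2B (from 56.8 to 225 CPM), while KDM6B, which removes the Polycomb mark, went from 35.9 to 10.2 CPM. Of 29 cofactors and modifying enzymes of E2F1 6 were higher and 0 lower, a share near that of all genes (20.3%), with a median of -0.07. JMY, a p300 cofactor, had 22.7, 25.8, 39.2, 76.4 and 207 CPM and was 8.01-fold higher (7.65 to 8.39). SIRT1, a deacetylase, had 59.1, 70.3, 140.0, 215 and 232 CPM. KAT2B, an acetyltransferase, went from 27.2 to 100.3 CPM.

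Among actin, contractile and plasminogen genes the calls were mostly lower. Of 28 actin and contractile genes, all analysed, 1 was higher (3.57%) and 6 were lower (21.4%), with a median of -0.36. The shares over all analysed genes were 20.3% and 11.3%. LIMA1, which crosslinks actin filaments, had 152, 279.7, 257, 175 and 74.9 CPM and was 3.73-fold lower (3.62 to 3.85). VCL, the focal adhesion protein vinculin, had 313, 341, 266, 184 and 113 CPM and was 3.03-fold lower (2.96 to 3.11). ZYX, another focal adhesion protein, had 246, 269, 215, 159 and 107 CPM. All 3 genes were lowest in YFP-high. The myosin heavy chain MYH10 went the other way, from 150.0 to 406 CPM. Of 5 analysed genes of the plasminogen system, which dissolves fibrin and matrix, 4 were lower and 1 higher (median -1.46). The activator PLAU had 25.2, 51.9, 43.3, 29.1 and 14.1 CPM, highest in YFP-negative, and PLAT went from 84.3 to 30.4 CPM. Both activators were lowest in YFP-high. SERPINE2, an inhibitor of proteases of this kind, went from 83.5 to 198 CPM, and MMP15, a membrane metalloproteinase, from 21.4 to 241 CPM.

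Cell contact genes gave a mixed list, with 3 higher and 3 lower of 15 analysed adherens, desmosome and gap junction genes (median -0.29). Across all analysed genes 20.3% were higher and 11.3% lower. GJA1, the gap junction protein connexin 43, had 87.3, 75.5, 50.7, 26.5 and 13.9 CPM and was 5.44-fold lower (5.07 to 5.84), and CTNND1, p120 catenin, went from 229 to 70.2 CPM. Of 72 protocadherin genes 38 were analysed, 5 were higher and 19 lower (median -1.02). A run of 6 analysed neighbours from PCDHB11 to PCDHB15 was lower throughout; these genes are alike in sequence and can share reads. PCDH9, outside that cluster, went from 11.1 to 112 CPM. Of 14 analysed keratin genes 5 were lower and 0 higher (median -0.71), with KRT80 going from 393 to 137 CPM and KRT81 from 305 to 130.3 CPM. Regulators of epithelial to mesenchymal transition, among them repressors of E-cadherin, had 6 higher and 1 lower of 9 analysed (median 1.04). SNAI1 had 8.90, 8.26, 7.35, 10.7 and 40.5 CPM and SNAI2 had 19.1, 8.37, 11.8, 19.8 and 25.2 CPM, and OVOL2, which opposes that transition, had 0.558, 0.851, 2.25, 5.83 and 19.01 CPM. CDH1, E-cadherin, had 3.35, 5.13, 5.49, 4.15 and 2.52 CPM and was not called.

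Metallothioneins, which bind zinc and copper, were lower in YFP-high than in YFP-negative in each of the 3 genes analysed of 10. MT1E went from 71.6 to 20.5 CPM, MT1X from 5.85 to 1.91 CPM and MT2A from 73.98 to 35.4 CPM. Parental cells had 39.6 CPM of MT2A, near its YFP-high level, and against that library 2 of the 3 genes were called lower. These genes are near-identical and can share reads. Antioxidant genes as a list had 2 higher (4.88%) and 5 lower (12.2%) of 41 analysed, against 20.3% and 11.3% of all analysed genes. The median of the list was -0.11, against -0.05 for all genes. GSR, glutathione reductase, had 58.9, 81.1, 147, 256 and 284 CPM, and BACH1, a repressor of NRF2 targets, had 112, 191, 285, 493 and 578 CPM. CAT, catalase, went from 39.5 to 16.5 CPM and TXNRD2, mitochondrial thioredoxin reductase, from 126 to 46.6 CPM. Of the polyamine genes, ODC1, which makes putrescine, was 2.16-fold higher (2.13 to 2.18) and ARG2, an arginase, 4.62-fold higher (4.46 to 4.78). MTAP, which acts on the by-product of polyamine synthesis and was listed with the methionine cycle, was 3.81-fold lower (3.55 to 4.08). The list of polyamine and methionine cycle genes had 2 higher and 2 lower of 22 analysed. Its median of 0.11 was -0.16 with total gene reads as library size.

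Of 7 analysed genes of pyroptosis, a lytic form of cell death, 4 were lower and 0 higher (median -1.22). Across all analysed genes 11.3% were lower and 20.3% higher. IL18, a cytokine released in it, had 176, 311, 256, 200.5 and 134 CPM, and DFNA5, a gasdermin, had 48.1, 51.7, 41.6, 31.9 and 21.4 CPM. NLRP1 and NLRP3, inflammasome sensors, were lower than in YFP-negative, but NLRP1 had 3.50, 18.3, 14.9, 11.02 and 5.27 CPM and NLRP3 had 2.94, 16.97, 18.6, 13.8 and 6.38 CPM, so both were lower still in parental cells. IL8, a chemokine, had 5.05, 32.6, 31.00, 21.9 and 9.97 CPM and was likewise lowest in parental cells. In TNF receptors and ligands 4 were higher and 7 lower of 17 analysed (median -0.51), with TNFRSF1A, the main TNF receptor, going from 99.4 to 21.4 CPM and TNFRSF11B, osteoprotegerin, from 18.8 to 3.96 CPM. IL1R1, the receptor of interleukin 1, had 14.3, 22.9, 34.7, 58.05 and 194 CPM and was 8.50-fold higher (8.10 to 8.92). IL1R1, IL18R1, IL18RAP and 4 flanking genes from CREG2 to SLC9A2 formed a run of 7 neighbouring analysed genes called higher.

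Antigen presentation by MHC class I had 0 of 12 analysed genes called (17 listed), against 20.3% higher and 11.3% lower over all genes. The median of 0.17 turned to -0.10 with total gene reads as library size, and reads of the class I genes are uncertain because they are alike and highly variable. HLA-B had 52.3, 76.8, 97.9, 83.3 and 89.2 CPM. Ligands for NK cells and checkpoint receptors had 0 higher and 1 lower of 11 analysed (median -0.63). The 1 gene was ULBP3, an NKG2D ligand, at 8.41, 11.02, 9.12, 6.55 and 4.88 CPM. CD274, the PD-L1 gene, had 5.21, 13.5, 15.1, 11.8 and 6.70 CPM and was not called, and the median of the list against parental cells was 0.22. Cancer-testis antigens had 1 higher and 4 lower of 16 analysed (median -0.75), and MAGE genes, which overlap that list and hold near-identical copies, 0 higher and 9 lower of 19. PRAME went from 385 to 198 CPM without a call, and MAGEA8 from 37.03 to 13.4 CPM.

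Several large machines showed few calls. Of 24 analysed tubulin genes and 20 nucleoporin genes of the NUP family 0 were called, with medians of -0.06 and -0.17. Of 44 proteasome genes 0 were higher and 1 was lower (median -0.06), and of 74 mitochondrial ribosomal proteins 2 were higher and 2 lower (median -0.34). Calls were fewer in these families than the 31.6% of all genes. TUBB4B, a beta tubulin, nonetheless went from 749 to 1387 CPM, which is below 2-fold, and NUP50 from 262 to 508 CPM. Splicing factors had 5 higher and 1 lower of 37 analysed (median 0.30). Tissue regulators of splicing held the largest moves, with PTBP2 going from 23.5 to 104 CPM and MBNL2 from 45.6 to 10.2 CPM. MAP kinases and their activators, named by symbol, had 12 higher (31.6%) and 0 lower of 38 analysed (median 0.27). Across all analysed genes 20.3% were higher and 11.3% lower. MAP3K5, a stress-activated kinase, went from 21.7 to 227 CPM.

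**Figure D4:**
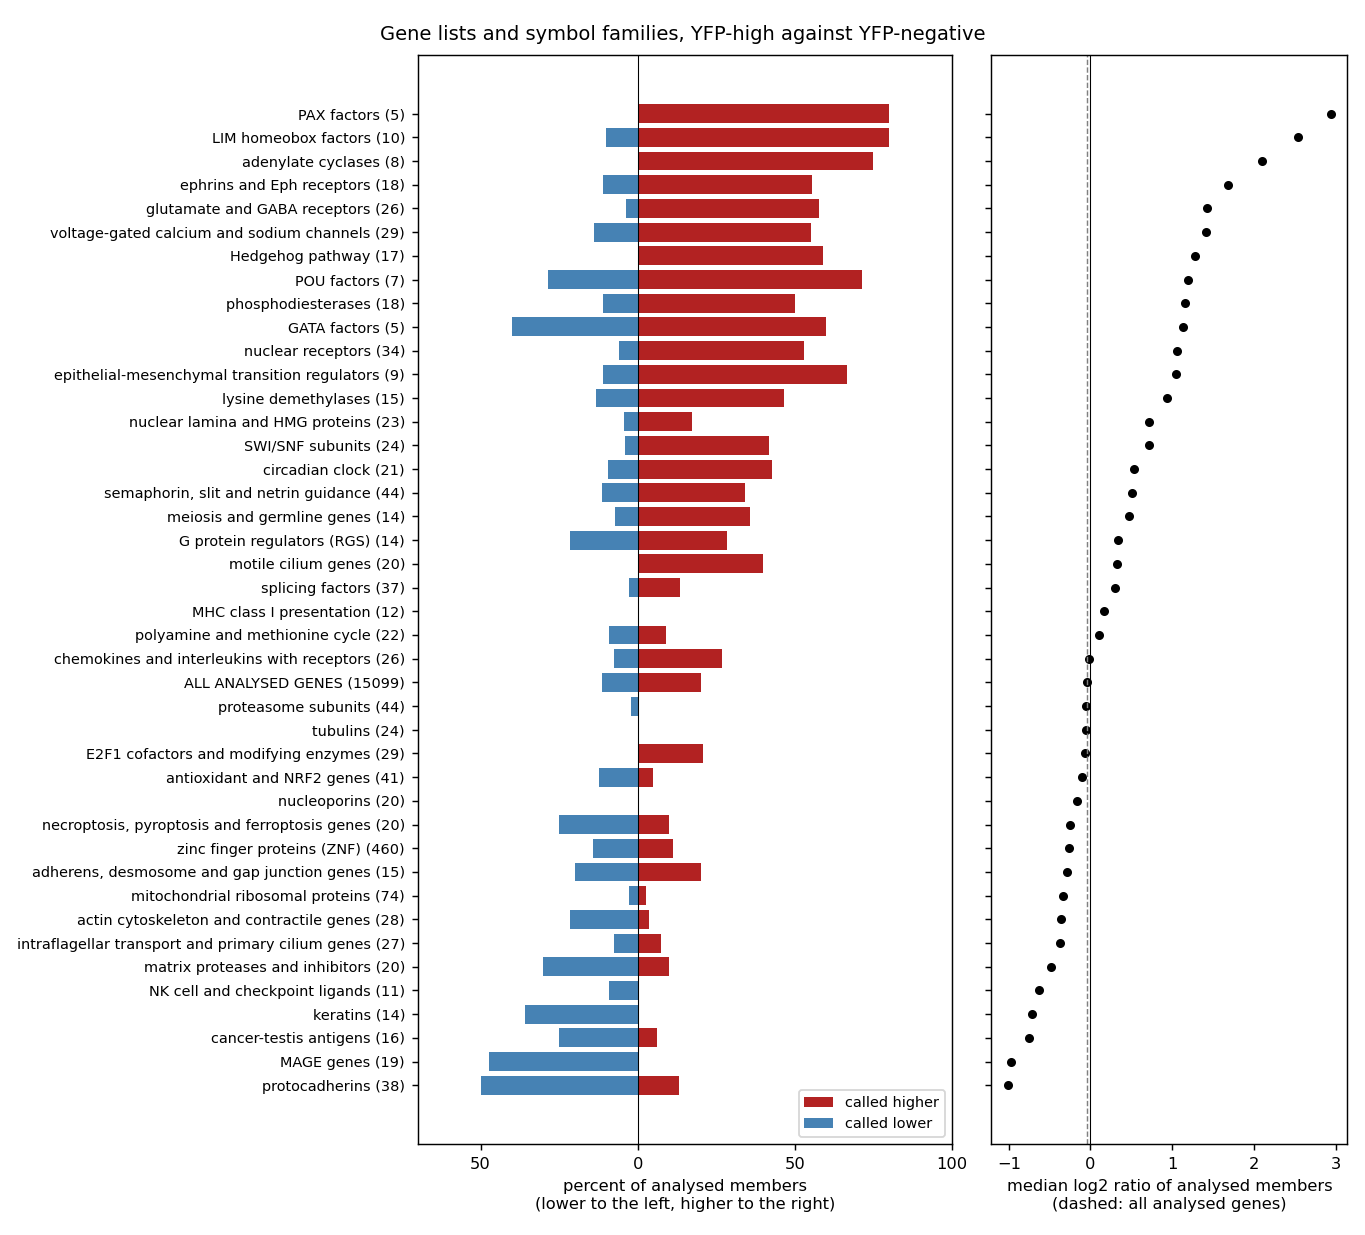
Percent of analysed members called higher (red, to the right) or lower (blue, to the left) in YFP-high for gene lists and symbol families of at least 5 analysed genes (number in parentheses), and their median log2 ratio (right panel; dashed line, all analysed genes). PAX and LIM homeobox genes have the highest medians shown (2.95 and 2.55), protocadherins the lowest (-1.02). Tubulins, nucleoporins of the NUP family and MHC class I genes have no call.

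The share of promoter windows with the E2F word was compared between the calls. Windows were given for 84.7% of 12837 analysed protein-coding genes outside chromosome 8: 81.2% of the higher, 83.6% of the lower and 85.9% of the other genes. The word occurred in 96 of 2075 windows of higher genes (4.63%), 31 of 1180 windows of lower genes (2.63%) and 449 of 7621 windows of genes called neither (5.89%), against 3.33% of all 27305 RefSeq windows. Of the 576 genes with the word 16.7% were called higher and 5.38% lower, and of the 10300 without it 19.2% and 11.2%. Their median log2 ratios were 0.06 and -0.07. With the word shortened by 1 base the shares were 21.5% of windows of higher genes, 13.7% of lower and 21.6% of other genes, so higher and other genes lay close together and lower genes below both. These shares carry no test. A window without the word says nothing of E2F1 binding, which these data do not measure. Other words differed by direction too. The AP-1 word TGANTCA occurred in 4.29% of windows of higher and 7.63% of lower genes, and the TEAD word GGAATG in 8.67% and 13.0%. The GC box GGGCGG occurred in 77.4% and 59.4%, and CCAAT in 31.4% and 38.6%. All words were sought on both strands and may overlap one another.

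Base composition of the promoter window went with the calls. Among 1756 genes with a window of at least 75% GC, 37.6% were higher and 4.33% lower, and the median log2 ratio was 0.60. Among 3419 genes with 55% to below 65% GC, 10.6% were higher and 13.1% lower (median -0.27), and among 462 genes below 45% GC 16.7% and 23.8%. At 75% GC or more, the median against YFP-negative stepped up with the gate, from 0.10 (YFP-low) through 0.28 (YFP-medium) to 0.60 (YFP-high), and that of YFP-negative against parental cells was 0.01. GC content of the transcript can affect read counts, so the shares were also taken within classes of transcript GC, a choice made after seeing the data. At 75% GC or more in the window, 40.7% of genes were higher where the transcript had below 45% GC, 38.9% at 45% to below 55% and 34.9% at 55% or more. The pattern of lower calls differed between the classes. In windows below 45% GC, 23.2% of genes were lower where the transcript had below 45% GC, and 5% of 40 genes where it had 55% or more. In windows of 45% to below 55% GC the corresponding shares were 17.5% and 9.35%. The part of transcript GC in the calls was not tested further. The printed windows of higher genes have 71% GC in IKZF1, 68.7% in CITED1, 65% in HS6ST3 and 75.3% in CDC20B, and those of lower genes 57.7% in FLAD1 and 66% in AEN.

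**Figure D5:**
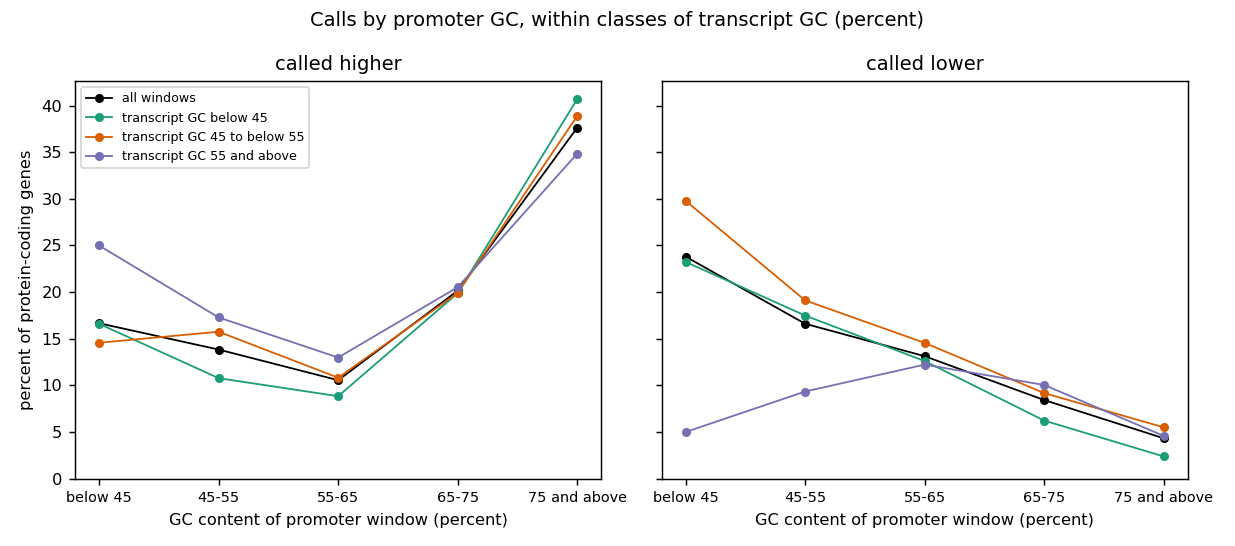
Percent of protein-coding genes called higher (left) and lower (right) in YFP-high, by GC content of the 300-base promoter window (horizontal axes, percent), for all windows and within 3 classes of transcript GC content (colours). At 75% GC or more the share higher lies between 34.9% and 40.7% in each class; the class of GC-rich transcripts with windows below 45% GC holds 40 genes.

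Called genes also stood in runs along the chromosomes. In RefSeq gene order, 16 runs of at least 5 neighbouring analysed genes shared 1 call, 15 of them higher and 1 lower. The longest held 7 genes: ICMT to TNFRSF25, PEAK1 to CIB2, and CREG2 to SLC9A2. HOXD9, HOXD8, HOXD4, HOXD3 and HOXD1 formed a run of 5. RRM2 and ODC1, which are described above, lay in another, from C2orf48 to SNORA80B. Overlapping neighbours can share reads where strand is not counted, and the share of such runs that is due to this was not tested. Over all analysed genes 20.3% were called higher and 11.3% lower, and how many runs these shares alone would give was not tested.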

How the data were processed

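RNA of 5 U2OS libraries was sequenced, 1 per group. The authors deposited raw read counts per gene name and a table of TPM, a transcript measure corrected for length and scaled to a sum of 1e+06. The submitters' processing notes list hg19, HISAT2 2.0.3, HTSeq 0.6.0, Trimmomatic 0.36, bcl2fastq and CASAVA 1.8.2, with no roles. Annotation, strand setting and TPM tool: not given in the sources used here. HTSeq's 5 classes of unassigned reads and a row without a gene name (at most 0.00073% of counted reads) were left out.

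Counts were scaled with TMM over all 5 libraries (edgeR 4.0.16, R 4.3.3; factors 1.09 in YFP-negative and 0.904 in YFP-high). A pseudocount of 0.5 CPM was added before log2 ratios, which understates changes of low genes. Intervals are exact 95% Clopper-Pearson intervals on both counts; PCR copies are not independent, so they cover counting error only. With 1 library per group no count test was run. The floor of 3 reads is 0.0469 CPM in YFP-high and 0.0360 CPM in YFP-negative. Columns of other samples numbered 0.

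The members, the 31 lists (736 of 740 entries had a row) and the 60 families taken by symbol were chosen with earlier results of these data known. The genes named were ESR1 and E2F1, the called genes with the largest CPM difference (10 per direction), the 8 switched-on genes with the highest TPM, and up to 5 members of each list and 3 of each family with the largest ratio and at least 5 CPM in YFP-negative or YFP-high. Others, such as PTCH1, SMO, CRY1, NR1D1, RARA and EPHA2, were chosen after their values were seen. Some results that fall under this rule are not reported here. Printed promoters are E2F1 and, among called genes with the word and at least 20 CPM in YFP-negative or YFP-high, the 4 higher and 2 lower with the counting bound farthest from no change. RefSeq types and gene order served for names and neighbours; 13856 of 15099 genes matched a record. Genes of chromosome 8 were left out of promoter counts. Alternatives were DESeq2 1.42.0 size factors, total gene reads, TMM on 2 libraries, other pseudocounts and folds, deposited TPM and the parental baseline. Calculations ran in Python 3.11.15 with scipy 1.17.1, pandas 2.3.3, numpy 2.4.6 and matplotlib 3.10.9.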

Additional observations from a re-analysis of the deposited data

Results flagged for a closer look

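Reads outside annotated genes made up 11.03% of counted reads in YFP-high, against 9.86% in YFP-negative and 9.11% to 9.60% in the other 3 libraries. This signal lies outside the gene counts used above and was above its level in the YFP-negative and parental libraries. Its part in the gene ratios was not tested.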

How the results depend on the processing

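No paired analysis was possible because each group holds 1 library, and for the same reason no library could be left out. The share of called genes that were higher, 64.1%, was 66.4% with DESeq2 size factors, 45.7% with total gene reads, 69.8% with a pseudocount of 2 CPM, 53.2% at 1.5-fold, 91.2% at 4-fold, 56.1% with the deposited TPM and 58.5% against the parental library. Genes called lower, 1712, numbered 2865 with total gene reads, 1079 with a pseudocount of 2 CPM, 3858 at 1.5-fold and 108 at 4-fold, and genes called higher, 3062, numbered 1115 at 4-fold. Switched-on genes, 69, numbered 172 with silence at 10 reads or fewer and 26 with a level of 2 CPM; switched-off genes, 0, numbered 16 with the former and 8 against the parental library. The share of windows with the E2F word, 4.63% of higher, 2.63% of lower and 5.89% of other genes, was 21.5%, 13.7% and 21.6% with a word shorter by 1 base, and at 4-fold 0% of lower and 5.36% of other genes. Medians changed sign with total gene reads in MHC class I presentation (-0.10), the polyamine list (-0.16) and ubiquitin-specific proteases (-0.15), with TPM in microRNA rows (0.83), and against the parental library in NK cell and checkpoint ligands (0.22), the list of necroptosis, pyroptosis and ferroptosis (0.15) and receptor tyrosine phosphatases (-0.13). Against the parental library BHLHE41 (-0.023), DBP (-0.13), GLIS2 (-0.0057), IL8 (0.92), NLRP1 (0.53) and NLRP3 (1.00) changed sign on the log2 scale. Of 339 named genes 337 kept direction and side of the rule with DESeq2 size factors, 307 with total gene reads and 294 against the parental library, where 22 no longer passed, 17 newly passed and 6 changed sign. The causes were not tested.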
